A study of Mus musculus with 8 samples.

Results

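The immediate early genes examined here were Fos, Fosb, Fosl2, Jun, Junb, Jund, Egr1, Ier2, Atf3, and Dusp1. They were taken by name from the expression tables, and all 10 were found as 1 row each among 21828 genes, with no failed estimate in any of the 8 libraries. Expression was measured in retinas of ICR mice by RNA sequencing of poly(A)-selected RNA. The libraries were whole retina at embryonic day 15 (E15) and day 18 (E18), and the Cd73-positive (Cd73PC) and Cd73-negative (Cd73NC) cells sorted at postnatal days 2, 5, and 8 (P2, P5, and P8). No allele or drug treatment is given for any library, and the retinas of a stage were pooled for the sort. Cd73 is a surface 5'-nucleotidase, encoded by Nt5e, that marks rod photoreceptor precursors and rods. The comparison of the fractions asks how rods and the other retinal cells differ, and the time course asks how each changes with age.

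Each condition had 1 library, so a comparison of 2 libraries has no replicate error and no p-value. The fractions of the 3 stages could be compared over 6 libraries with stage as a block, and that fit is given after the single stages. The values are FPKM, which is sequenced fragments scaled by the length of the transcript and the size of the library, so that levels of different genes can be compared per length. The intervals are the 95% bounds of Cufflinks, the program that estimated FPKM. They cover uncertainty within a library, not between animals, and 12 of the 80 values of these genes lay above their own upper bound. Depth relative to E18 ranged from 0.965 (E15) to 1.62 (P2 Cd73PC), and the absolute depth is unknown. A gene was called higher or lower when the ratio of FPKM + 1 passed 1.5-fold and its FPKM was at least 1 in either library.

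Immediate early genes are transcribed within minutes of a signal such as a growth factor, calcium entry, or stress, without new protein synthesis. Fos and Jun proteins pair to form the transcription factor AP-1: Jun family proteins can pair among themselves, whereas Fos family proteins need a Jun partner. Egr1 is a zinc finger transcription factor, Atf3 is a bZIP factor of the stress response, Ier2 is a short nuclear protein, and Dusp1 is a phosphatase that switches off MAP kinases. In the nervous system these genes are used as reporters of activity, and they are known to respond to the dissociation of tissue.

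The start regions of Fos, Junb, and Dusp1 are shown because these genes moved in different directions between the fractions. Each sequence is the 250 bases before the transcript start in RefSeq (build GRCm38.p6, not the mm9 of the expression tables), written 5' to 3' along the gene's strand. Capitals mark the cAMP response element (CRE, TGACGTCA), its core (TGACG, which also lies inside the CRE), and the TATA box (TATAAA), each searched on both strands.
Fos, chr12:85473640-85473889, plus strand: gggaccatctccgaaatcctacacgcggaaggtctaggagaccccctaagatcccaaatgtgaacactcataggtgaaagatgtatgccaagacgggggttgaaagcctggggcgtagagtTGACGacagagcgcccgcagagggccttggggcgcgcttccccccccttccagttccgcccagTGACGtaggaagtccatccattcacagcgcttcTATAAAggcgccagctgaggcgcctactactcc
Junb, chr8:84978749-84978998, minus strand: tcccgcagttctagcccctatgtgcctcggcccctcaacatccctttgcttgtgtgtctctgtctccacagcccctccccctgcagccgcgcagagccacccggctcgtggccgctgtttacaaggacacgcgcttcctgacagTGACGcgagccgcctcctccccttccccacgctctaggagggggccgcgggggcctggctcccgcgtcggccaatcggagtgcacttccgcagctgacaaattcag
Dusp1, chr17:26508473-26508722, minus strand: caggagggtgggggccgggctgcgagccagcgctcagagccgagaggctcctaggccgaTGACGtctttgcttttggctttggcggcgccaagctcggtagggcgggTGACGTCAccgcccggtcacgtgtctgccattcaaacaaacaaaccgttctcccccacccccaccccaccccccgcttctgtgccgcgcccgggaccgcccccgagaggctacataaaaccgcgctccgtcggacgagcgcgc

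With the first base of the annotated transcript counted as 0, the CRE cores of Fos began at -129 and -66 and its TATA box at -33. In Dusp1 a full CRE lay from -143 to -136, and a further core began at -191. In Junb the core began at -106, and a TATA box began at the first base of the transcript. The search covered 300 bases, including the first 50 of the transcript, in 8 members, and those of Egr1 and Ier2 were not analysed here. The CRE core was found in 5 of these 8 members (Atf3, Dusp1, Fos, Fosb, and Junb) and in 20.8% of 32851 RefSeq promoter windows, and the full CRE in 1 of 8 and in 1.79% of all. The TATA box was found in 2 of 8 (13.6% of all windows) and the EGR site (GCGNGGGCG) in 2 of 8, Fosb and Fosl2 (5.55% of all). The AP-1 site (TGANTCA, 7.81% of all), the CArG box of serum response factor (1.63%), and the heat shock element (0.603%) were found in 0 of 8. A match is a stretch of letters and not a bound site, and these windows are short.

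In the mm9 coordinates of the files, Fos lies at chr12:86814851-86818219 (plus strand), Fosb at chr7:19888045-19895394 (minus), and Fosl2 at chr5:32438845-32460212 (plus). Jun lies at chr4:94715727-94718913 (minus), Junb at chr8:87500808-87502647 (minus), and Jund at chr8:73221638-73224515 (plus). Egr1 lies at chr18:35020861-35024610 (plus), Ier2 at chr8:87185230-87186751 (minus), Atf3 at chr1:192994176-193007212 (minus), and Dusp1 at chr17:26642536-26645417 (minus). The values cover the whole gene, and transcripts of a gene were not separated.

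The 10 genes differed widely in level. Jund and Jun were the most abundant, with a mean over the 8 libraries of 83.3 and 48.8 FPKM. Ier2 (27.0), Egr1 (14.6), Dusp1 (13.1), Junb (7.20), and Fos (7.20) followed, and Atf3 (0.514), Fosb (0.284), and Fosl2 (0.185) were near or below 1 FPKM throughout. The genes that varied most over the libraries were Egr1, with a range of 4.86 on the log2(FPKM + 1) scale, Fos (3.62), and Junb (2.82). The median range of the 13412 genes that reached 1 FPKM was 1.21, and 1.56% of them had a larger range than Egr1, 5.34% a larger range than Fos, and 11.8% a larger range than Junb. Dusp1 (2.25), Ier2 (1.81), and Jun (1.26) had intermediate ranges, and Jund varied by 0.88.

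**Figure D1:**
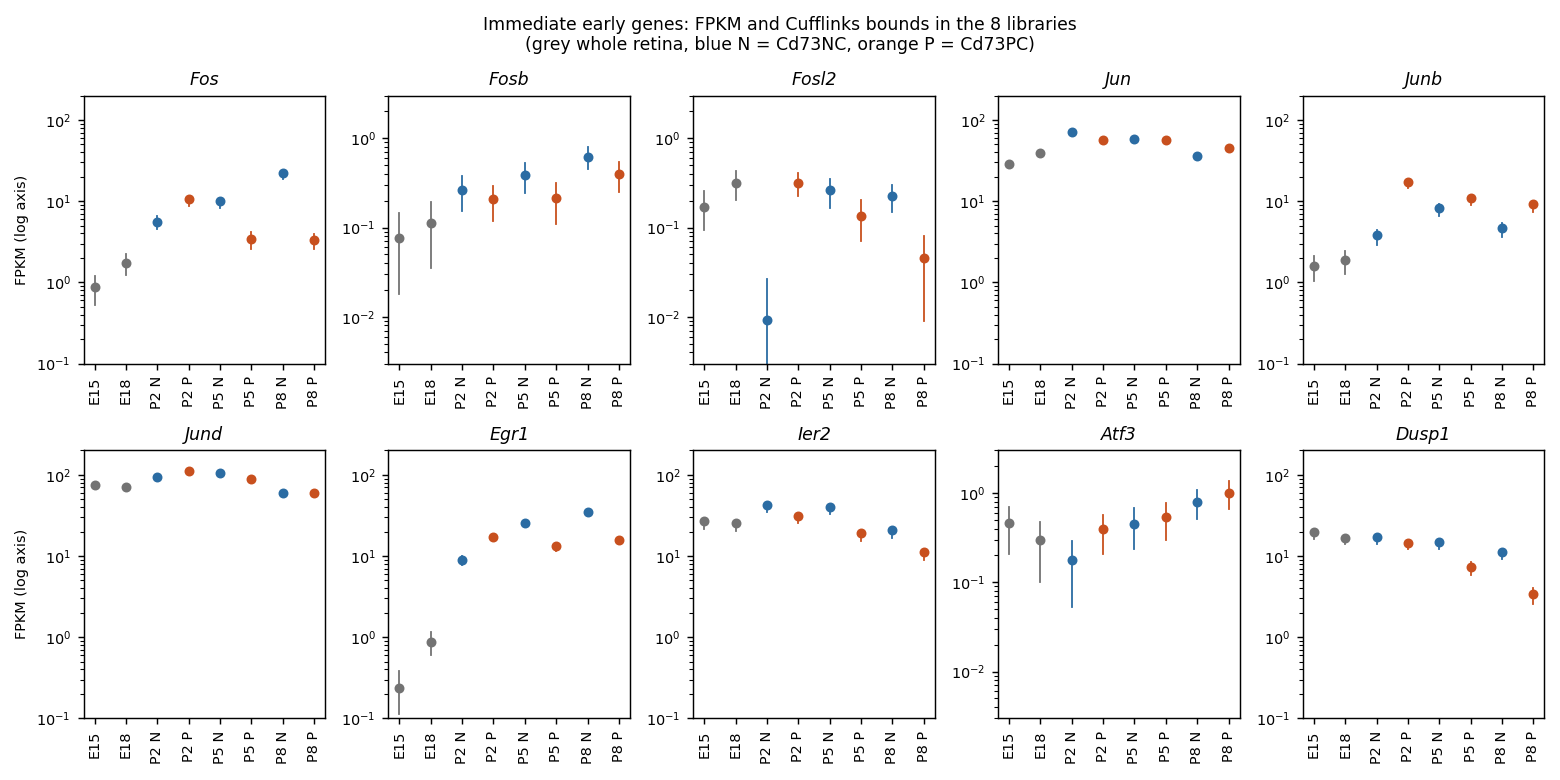
FPKM of the 10 immediate early genes (log axis; Fosb, Fosl2, and Atf3 on a lower scale) in the 8 libraries, 1 point per library with its Cufflinks bounds. Egr1 spans from 0.239 in E15 whole retina to 34.9 in P8 Cd73NC, whereas Jund stays between 60.0 and 112; the lower bound of Fosl2 in P2 Cd73NC is 0 and leaves the axis.

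Fos, the founding Fos family member, was lowest in whole retina, at 0.870 FPKM (bounds 0.524 to 1.21) at E15 and 1.75 (1.23 to 2.25) at E18. At P2 it was 5.61 (4.49 to 6.62) in Cd73NC and 10.5 (8.79 to 11.2) in Cd73PC. At P5 the order was the opposite, with 10.1 (8.31 to 10.8) in Cd73NC and 3.39 (2.58 to 4.14) in Cd73PC. At P8 Fos was 22.0 (18.9 to 22.3) in Cd73NC and 3.31 (2.57 to 3.94) in Cd73PC. The bounds of P2 Cd73PC and P5 Cd73NC overlapped, as did those of P5 and P8 Cd73PC, and the other neighbours in the order of levels were apart.

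Egr1 followed a similar course. It was 0.239 FPKM (0.112 to 0.379) at E15 and 0.877 (0.603 to 1.16) at E18. At P2 it was 9.01 (7.81 to 9.92) in Cd73NC and 17.0 (15.2 to 17.8) in Cd73PC. At P5 it was 25.3 (22.6 to 26.3) in Cd73NC and 13.2 (11.5 to 14.1) in Cd73PC, and at P8 34.9 (31.5 to 35.1) in Cd73NC and 15.9 (14.1 to 17.2) in Cd73PC. Egr1 thus increased with stage in Cd73NC, whereas in Cd73PC the bounds of P8 overlapped those of P2 and of P5, and those of P2 and P5 were apart.

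Junb, a Jun family member that is itself an early response gene, was 1.59 FPKM (1.04 to 2.12) at E15 and 1.86 (1.26 to 2.41) at E18, and these bounds overlapped. It was higher in Cd73PC than in Cd73NC at each stage. The values were 17.3 (14.4 to 17.7) against 3.80 (2.90 to 4.43) at P2, 11.0 (8.86 to 11.8) against 8.20 (6.51 to 9.36) at P5, and 9.27 (7.46 to 10.1) against 4.66 (3.63 to 5.41) at P8. The bounds of the fractions overlapped at P5 and were apart at P2 and P8.

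Jun and Jund, the most abundant members, varied less than Junb. Jun was 28.8 FPKM at E15, 39.0 at E18, 70.3 in P2 Cd73NC, 57.2 in P2 Cd73PC, 57.8 in P5 Cd73NC, 56.1 in P5 Cd73PC, 36.5 in P8 Cd73NC, and 44.6 in P8 Cd73PC. It was thus highest in P2 Cd73NC and lowest at E15. Jund was 75.3 at E15, 70.7 at E18, 95.1 and 112 in P2 Cd73NC and Cd73PC, 104.5 and 89.3 at P5, and 60.0 and 60.2 at P8. Its lowest values were those of both fractions at P8.

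Ier2 and Dusp1 differed from Fos and Egr1 in that they were already abundant in whole retina. Ier2 was 26.7 FPKM at E15 and 25.3 at E18, then 42.2 and 30.7 in P2 Cd73NC and Cd73PC, 40.2 and 19.4 at P5, and 20.6 and 11.3 at P8. Dusp1 was 19.7 at E15 and 16.9 at E18, then 17.0 against 14.4 at P2, 14.9 against 7.33 at P5, and 11.2 against 3.36 at P8. Both genes were lower in Cd73PC than in Cd73NC at all 3 stages, and both were lowest in P8 Cd73PC.

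Fosb, Fosl2, and Atf3 were low. Fosb ranged from 0.0768 FPKM (0.0182 to 0.145) at E15 to 0.618 (0.453 to 0.790) in P8 Cd73NC. Atf3 ranged from 0.177 (0.0529 to 0.291) in P2 Cd73NC to 1.0 (0.660 to 1.35) in P8 Cd73PC, the only library in which it reached 1 FPKM. Fosl2 ranged from 0.00923 (0 to 0.0267) in P2 Cd73NC to 0.316 (0.203 to 0.429) at E18. The bounds of every pair of neighbours in the order of levels overlapped for these 3 genes, although those of the lowest and the highest library were apart for each.

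Between the fractions at P2, 3 of the 7 members that passed the filter were higher in Cd73PC and 0 were lower. Among all 12336 genes tested, 14.5% were higher and 25.0% lower. The log2 ratio of Cd73PC over Cd73NC on the FPKM + 1 scale was 1.93 for Junb, 0.85 for Egr1, and 0.80 for Fos. Jund (0.23), Dusp1 (-0.23), Jun (-0.29), and Ier2 (-0.45) lay within 1.5-fold. The median ratio of the 7 members was 0.23, against -0.14 for all genes.

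At P5, 0 of 7 members were higher in Cd73PC and 4 were lower, against 12.3% higher and 27.0% lower among 12231 genes. Fos had a log2 ratio of -1.34, Ier2 of -1.02, Dusp1 of -0.93, and Egr1 of -0.89. Junb (0.38), Jun (-0.04), and Jund (-0.22) lay within 1.5-fold. With quantile normalization, which gives all libraries the same distribution of values, Junb at P5 passed the threshold with 0.60, and with scaling to a common upper quartile the ratio of Jun turned to 0.08. The median of the members was -0.89, against -0.18 for all genes.

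At P8, 1 of 8 members, Junb, was higher in Cd73PC and 4 were lower, against 13.0% higher and 31.3% lower among 12365 genes. Fos showed the largest difference of the members, with a log2 ratio of -2.42, followed by Dusp1 (-1.48), Egr1 (-1.08), and Ier2 (-0.81). Junb had a ratio of 0.86, whereas Jun (0.28), Atf3 (0.16), and Jund (0.00) lay within 1.5-fold. With quantile normalization Atf3 passed the threshold with 0.70. The median of the members was -0.40, against -0.23 for all genes. As many genes of all kinds were lower in Cd73PC, the count of 4 of 8 lower is to be read against the 31.3%.

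**Figure D2:**
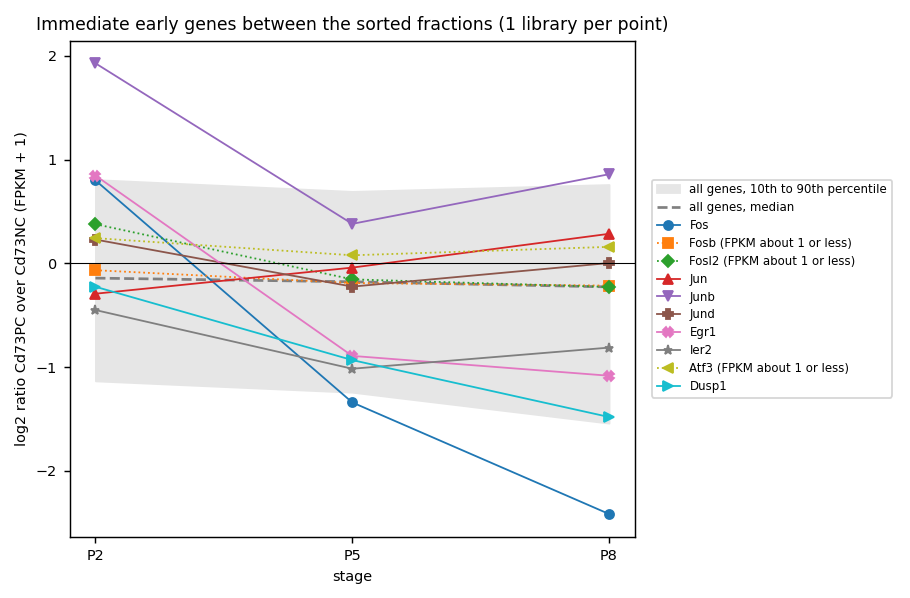
Log2 ratio of Cd73PC over Cd73NC (FPKM + 1) for each immediate early gene at P2, P5, and P8, with the median and the 10th to 90th percentile of all genes in grey; each point is 1 library over another. Fos goes from 0.80 at P2 to -2.42 at P8 and Egr1 from 0.85 to -1.08, Junb stays above 0, and Ier2 and Dusp1 stay below 0.

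Over the 3 stages the members fell into distinct courses. Fos and Egr1 were higher in Cd73PC at P2 and lower at P5 and P8, so that their mean ratios of -0.99 and -0.38 describe no single stage. Junb had a mean ratio of 1.06 and was above 0 at each stage. Dusp1 (mean -0.88) and Ier2 (mean -0.76) were below 0 at each stage, within 1.5-fold at P2 and past it at P5 and P8. Jun (-0.02) and Jund (0.00) averaged close to 0. The fit with stage as a block took the 3 stages as pairs of fractions from the same pooled retinas, with limma on log2(FPKM + 1) over 13057 genes and 2 residual degrees of freedom. It called 8.90% of all genes higher and 19.2% lower in Cd73PC at an adjusted p under 0.05, and 1 of the 8 members tested, Ier2. The mean ratio of Ier2 was -0.76 ± 0.29 (SD over 3 stages), lower at 3 of 3 stages, with an adjusted p of 0.022 by limma. Dusp1, at -0.88 ± 0.63 and lower at 3 of 3 stages, had an adjusted p of 0.056 by limma. Junb, at 1.06 ± 0.79 and higher at 3 of 3 stages, had an adjusted p of 0.056 by limma as well. Fos (-0.99 ± 1.64) and Egr1 (-0.38 ± 1.06), which changed sign between stages, had adjusted p-values of 0.26 and 0.50 by limma. Jun, Jund, and Atf3 had adjusted p-values between 0.59 and 0.99 by limma. The SD over stages holds the change of the ratio with age as well as error, and stages are not replicates of a condition.

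Astrocyte markers moved with Fos and Egr1, and microglia and bipolar cell markers did so in part. Of 6 astrocyte markers (Gfap, Pax2, Aldh1l1, S100b, Aqp4, and Pdgfra), 4 passed the filter at P2 and all 4 were higher in Cd73PC, 5 passed at P5 and all 5 were lower, and all 6 were lower at P8. Their summed FPKM was 4.7 at E15, 8.5 at E18, 3.1 in Cd73NC against 26.0 in Cd73PC at P2, 34.3 against 9.2 at P5, and 27.1 against 8.8 at P8, and no marker of the list was at 0 in any library. Of 11 microglia markers, 10 passed at P2 and all 10 were higher in Cd73PC, against 14.5% of all genes. At P5 and P8, 27.0% and 31.3% of all genes were lower. Near these shares, 4 of 11 microglia markers were lower at P5 and 3 of 11 at P8. Their summed FPKM was 11.8 against 64.9 at P2, 79.0 against 54.2 at P5, and 226 against 169 at P8, with 1 marker at 0 in P2 Cd73NC. Of 9 bipolar cell markers, 3 of 6 that passed were higher and 2 lower at P2, 7 of 9 were lower at P5, and 9 of 9 were lower at P8. Their sums were 540 against 830, 1308 against 580, and 2758 against 611 at the 3 stages. The part of these cells in the differences of Fos and Egr1 was not tested.

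Rod markers moved with Junb, and pigment epithelium and cone markers did so in part. All 8 rod markers were higher in Cd73PC at each stage. Among all genes, 14.5% were higher at P2, 12.3% at P5, and 13.0% at P8. The summed FPKM of the rod markers in Cd73NC against Cd73PC was 82.0 against 4148 at P2, 1101 against 8891 at P5, and 976 against 13949 at P8. Pigment epithelium markers were higher in Cd73PC in 5 of 5 that passed at P2, 1 of 5 at P5, and 4 of 6 at P8, and 0 were lower. Their summed FPKM was 2.9 against 77.4 at P2, 49.7 against 70.7 at P5, and 64.5 against 121 at P8. Cone markers were higher in 2 of 4 that passed at P2, 1 of 5 at P5, and 3 of 6 at P8, and 1 was lower at P5. The part of rods, cones, and pigment epithelium in the ratio of Junb was not tested.

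Müller glia and proliferation markers moved with Ier2 and Dusp1, and several other lists did so in part. Müller glia markers were lower in Cd73PC at all 3 stages, in 8 of 9 that passed at P2, 9 of 9 at P5, and 10 of 10 at P8. Their summed FPKM was 1738 in Cd73NC against 713 in Cd73PC at P2, 2419 against 648 at P5, and 1798 against 432 at P8. All 8 proliferation markers were lower at P2, and 7 of 8 were lower at each later stage, with sums of 1045 and 316, 235 and 112, and 71.8 and 60.9. Endothelial and pericyte markers were lower in 3 of 3 that passed at P2, 3 of 9 at P5, and 6 of 7 at P8. Erythroid markers were lower in 2 of 3, 1 of 5, and 4 of 5. Among all genes 25.0%, 27.0%, and 31.3% were lower at the 3 stages, and both lists lay near that share at P5. Amacrine cell markers were lower in 4 of 5 that passed at P2, 3 of 4 at P5, and 3 of 4 at P8, and 1 was higher at each stage. Horizontal cell markers were lower in 1 of 2, 2 of 2, and 2 of 2. The part of these cells in the ratios of Ier2 and Dusp1 was not tested, and fewer cells of a type and less RNA per cell cannot be told apart.

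The labels of the sort were checked against rod markers. Nt5e, Nrl, Nr2e3, Gnat1, Pde6b, Sag, and Rom1 were each higher in Cd73PC at every stage. Nt5e was 97.3 against 2.43 FPKM at P2, 131 against 31.4 at P5, and 124 against 9.38 at P8. In the negative fraction Sag, the arrestin of rods, was 12.9 FPKM at P2, 221 at P5, and 273 at P8, so rod transcripts were present there at the later stages.

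The first step of the time course was within whole retina. From E15 to E18, 0 of the 6 members that passed the filter were higher or lower, against 7.60% higher and 3.47% lower among 12627 genes. Egr1 was below 1 FPKM at both ages and so below the filter, but it had the largest log2 ratio of the members, 0.60, with bounds that were apart. Fos was just within the threshold with 0.56, also with bounds apart, and Jun had 0.42. Without the pseudocount Fos was past 1.5-fold. The median of the members was 0.03 and that of all genes 0.04.

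From E18 to P2 several members were higher. In P2 Cd73NC, 5 of 7 were higher than at E18 and 0 lower, against 5.47% higher and 13.3% lower among 12555 genes. The log2 ratios were 2.42 for Egr1, 1.26 for Fos, 0.84 for Jun, 0.75 for Junb, and 0.72 for Ier2. In P2 Cd73PC, 4 of 7 were higher and 0 lower, against 14.7% and 30.2% among 12735 genes. The ratios were 3.26 for Egr1, 2.68 for Junb, 2.07 for Fos, and 0.65 for Jund. Dusp1 was within 1.5-fold in both, with 0.01 and -0.21. Both comparisons share the E18 library. The P2 cells were incubated with trypsin, stained, and sorted, steps that the methods do not describe for the E18 cells, so age and handling cannot be told apart here. Cell type markers also moved across this step. All 8 ganglion cell markers were lower in both P2 fractions, with summed FPKM of 601 at E18, 21.1 in P2 Cd73NC, and 12.2 in P2 Cd73PC. In P2 Cd73PC, 7 of 10 microglia markers that passed, 5 of 5 of the pigment epithelium, and 3 of 4 of astrocytes were higher than at E18, whereas in P2 Cd73NC 0 markers of these 3 lists were higher. All proliferation markers were lower in P2 Cd73PC. The part of these cells was not tested.

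Genes of the heat shock response were counted across the same step. Of 16 of 17 that passed, 1 was higher and 3 lower in P2 Cd73NC than at E18, against 5.47% and 13.3% of all genes, and 0 were higher and 1 lower in P2 Cd73PC, against 14.7% and 30.2%. Hspa8, a constitutive Hsp70 and the most abundant of them, was 787 FPKM at E18, 918 in P2 Cd73NC, and 803 in P2 Cd73PC. Hspa1b, an inducible Hsp70, was 1.98 at E18, 0.76 in P2 Cd73NC, and 1.88 in P2 Cd73PC, and it was higher in Cd73PC than in Cd73NC at each stage, reaching 7.28 in P8 Cd73PC. Its sequence is nearly the same as that of Hspa1a, so reads may be split between them.

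From P2 to P5 each fraction was compared with itself. In Cd73NC, 3 of 7 members were higher at P5 and 0 lower, against 13.1% higher and 16.3% lower among 12404 genes, with log2 ratios of 1.40 for Egr1, 0.94 for Junb, and 0.75 for Fos. In Cd73PC, 0 of 7 were higher and 4 lower, against 5.92% and 15.3% among 11910 genes, with -1.39 for Fos, -0.89 for Dusp1, -0.64 for Ier2, and -0.61 for Junb. With upper-quartile scaling or quantile normalization, Ier2 and Junb were no longer past the threshold, which left 2. Whether the change with age differed between the fractions was not tested. Astrocyte markers were higher at P5 in 5 of 5 that passed in Cd73NC and lower in 3 of 4 in Cd73PC. In Cd73NC, 10 of 11 microglia markers and 8 of 9 bipolar cell markers were higher at P5, against 0 of 10 and 4 of 8 in Cd73PC. Their part was not tested.

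From P5 to P8, 1 of 7 members was higher and 4 were lower in Cd73NC, against 14.1% higher and 13.2% lower among 12549 genes. Fos was higher, with a log2 ratio of 1.05. Ier2 (-0.93), Jund (-0.79), Junb (-0.70), and Jun (-0.65) were lower, and Egr1 (0.45) and Dusp1 (-0.39) were within 1.5-fold. In Cd73PC, 0 of 8 were higher and 2 were lower, Dusp1 (-0.93) and Ier2 (-0.73), against 5.94% and 8.54% among 11635 genes.

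The makeup of the AP-1 transcripts was dominated by the Jun family in every library. The summed FPKM of Jun, Junb, and Jund was 106 at E15, 112 at E18, 169 and 186 in P2 Cd73NC and Cd73PC, 170 and 156 at P5, and 101 and 114 at P8. That of Fos, Fosb, and Fosl2 was 1.12, 2.18, 5.88 and 11.0, 10.8 and 3.74, and 22.9 and 3.75, in the same order. The Fos family thus made up 1.05% of both families together at E15, 1.92% at E18, 3.36% in Cd73NC against 5.60% in Cd73PC at P2, 5.94% against 2.34% at P5, and 18.4% against 3.19% at P8. The share in P8 Cd73NC was the highest and came with a Jun family sum that was the lowest of the 8. Within the Jun family, Junb made up 1.51% at E15, 1.67% at E18, 2.24% against 9.28% at P2, 4.81% against 7.02% at P5, and 4.61% against 8.13% at P8. Jund made up between 52.7% and 71.2%. These are shares of transcripts, not of proteins or of AP-1 complexes.

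**Figure D3:**
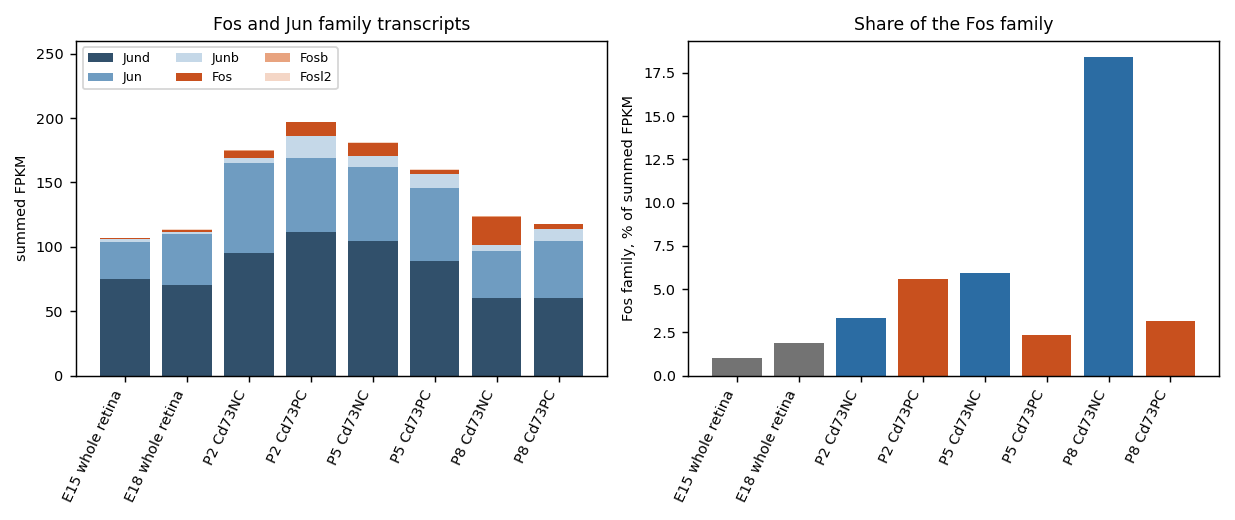
Left, summed FPKM of the Jun and Fos family members in each of the 8 libraries; right, the Fos family as a percentage of that sum (grey whole retina, blue Cd73NC, orange Cd73PC). The Fos family share is 18.4% in P8 Cd73NC and at most 5.94% in the other libraries.

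The pathway around these genes was described with lists of related genes. Of 48 other immediate early genes, 36 passed the filter at P2, of which 7 were higher and 15 lower in Cd73PC. At P5, 4 of 32 were higher and 17 lower, and at P8, 5 of 33 were higher and 15 lower. Among all genes, 14.5%, 12.3%, and 13.0% were higher and 25.0%, 27.0%, and 31.3% lower at the 3 stages. The median log2 ratios were -0.23, -0.64, and -0.32, against -0.14, -0.18, and -0.23 for all genes. Ier3, an early gene linked to survival under stress, was higher in Cd73PC at all 3 stages, with 81.9 against 3.12 FPKM at P2, 84.3 against 16.2 at P5, and 104 against 11.6 at P8. Nfkbia, the inhibitor of NF-kappaB, was also higher at all 3, with 46.3 against 13.7, 35.7 against 21.7, and 25.6 against 14.7.

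Of the same 48 genes, 9 were lower in Cd73PC at all 3 stages. The share of all genes lower at all 3 stages was not computed, so this count is not read as a trait of the list. Gadd45g, a growth arrest gene, was 21.4 FPKM in Cd73PC against 78.3 in Cd73NC at P2, 17.6 against 97.8 at P5, and 4.94 against 31.3 at P8. Id1, Id2, and Id3, inhibitors of basic helix-loop-helix factors, had log2 ratios between -2.15 and -1.48. Zfp36l1, an RNA-binding protein that promotes mRNA decay, had ratios of -1.88, -2.08, and -2.52, and Rhob, a small GTPase, of -1.12, -1.26, and -1.90. Müller glia and proliferation markers were lower in the same libraries, as given above, and their part was not tested. Btg2, an antiproliferative gene with the highest mean of the list at 119 FPKM, had ratios of 0.67, -0.36, and 0.17, and Trib1, a pseudokinase, of 0.44, 0.63, and 2.73. Egr2, Egr3, and Egr4, the relatives of Egr1, were below 1 FPKM in every library.

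Genes that restrain MAP kinase signalling were next. Of 14 of 16 that passed at each stage, 7 were lower and 3 higher at P2, 9 lower and 3 higher at P5, and 10 lower and 2 higher at P8, with medians of -0.73, -1.31, and -1.42. Among all genes 25.0%, 27.0%, and 31.3% were lower. Müller glia and proliferation markers were lower in the same libraries, and their part was not tested. Lower at all 3 stages were 7 genes, a count that again has no share of all genes beside it. Among them, the phosphatase Dusp4 was 6.15 against 17.2 FPKM at P2, 2.43 against 12.3 at P5, and 6.73 against 45.1 at P8. Dusp6, a MAP kinase phosphatase, had ratios of -1.32, -1.33, and -1.50. Dusp16, Dusp10, Spred1, and Spred2, the last 2 being inhibitors of Ras signalling, had ratios between -1.93 and -1.07, and Spry4 was the seventh. Spry2, also an inhibitor of receptor signalling and the most abundant of the list, had ratios of -0.09, 0.59, and 1.55, and Dusp8 of 0.89, 0.51, and 0.07. Dusp1 was not on this list but was lower at P5 and P8 as well.

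The kinases and transcription factors upstream are read against the same shares of all genes, with 14.5%, 12.3%, and 13.0% higher. Of the MAP kinases and their activators, 1 of 19 was higher and 6 lower at P2, 0 of 17 higher and 4 lower at P5, and 1 of 17 higher and 7 lower at P8. Map2k6, which activates p38, was lower at all 3 stages, with -0.67, -0.77, and -0.91. Mapk3 was the most abundant of the list, with ratios of 0.27, -0.26, and -0.78. Of 16 regulators of early gene transcription, 3 were higher and 1 lower at P2, 2 higher and 5 lower at P5, and 4 higher and 3 lower at P8. Crtc3, a coactivator of CREB, was higher at all 3, with 0.88, 0.82, and 1.14. Creb1 itself had ratios of 0.19, -0.32, and 0.26, and Ep300, a histone acetyltransferase, of 0.63, 0.14, and 0.62.

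Of 16 relatives and partners of AP-1, 3 of 13 that passed were higher and 4 lower at P2, 1 of 11 higher and 1 lower at P5, and 2 of 11 higher and 2 lower at P8. Atf4, the effector of the integrated stress response, was higher in Cd73PC at each stage, with 273 against 114 FPKM at P2, 280.5 against 134 at P5, and 248 against 120.4 at P8. Maf was lower at each stage, with ratios of -0.88, -1.60, and -0.82. The counts of this list, and of the stress response lists that follow, are to be read against all genes. Of these, 14.5%, 12.3%, and 13.0% were higher in Cd73PC in order of stage, and 25.0%, 27.0%, and 31.3% were lower. Of the integrated stress response genes, 3 of 11 were higher and 1 lower at P2, 4 of 12 higher and 1 lower at P5, and 3 of 13 higher and 4 lower at P8. Ddit3, a target of Atf4, was higher at all 3, with 0.67, 0.92, and 0.89. Atf3, also known as a target of Atf4, stayed within 1.5-fold at P8 and below the filter at P2 and P5. Of the heat shock genes, 4 of 16 were higher and 1 lower at P2, 1 of 16 higher and 4 lower at P5, and 3 of 15 higher and 5 lower at P8.

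**Figure D4:**
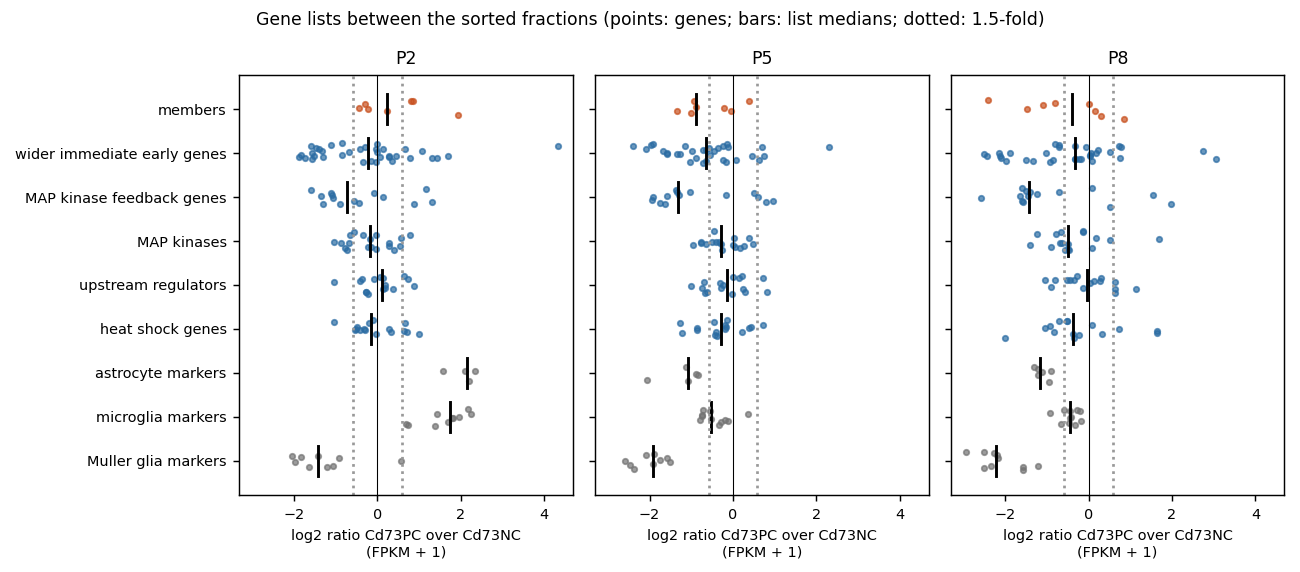
Log2 ratio of Cd73PC over Cd73NC (FPKM + 1) for the genes of 9 lists at P2, P5, and P8; each point is a gene past the filter, the black bar is the list's median, and dotted lines mark 1.5-fold. The median of the MAP kinase feedback genes goes from -0.73 at P2 to -1.42 at P8, and that of the astrocyte markers from 2.16 to -1.17.

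Likeness of course was measured as the root mean square distance between log2(FPKM + 1) profiles over the 8 libraries, after each profile's mean was subtracted. Among the members, Fosb and Atf3 (0.19), which hardly varied, Jun and Jund (0.28), and Ier2 and Dusp1 (0.37) were close. Fos and Egr1 lay 0.88 apart, and no other member lay closer to Fos. Egr1 and Dusp1 were farthest apart (2.07). Among the 9271 genes with a mean of at least 5 FPKM, those closest to Fos were Cabp1 (0.41), a calcium-binding protein of neurons, Fbxo2 (0.42), Neurod4 (0.52), a bHLH factor of retinal interneurons, and Cntn1 (0.55), a neuronal adhesion protein. Gm4980 (0.56), Cd9 (0.56), Gem (0.57), and Dusp5 (0.59) came next. Cabp1 was 90.1 FPKM in P8 Cd73NC and 15.3 in P8 Cd73PC. The genes closest to the mean profile of the 10 members were Pdcd4 (0.06), Glrx2 (0.10), Mbtps2 (0.11), Yipf6 (0.12), Serinc1 (0.13), Casc4 (0.13), Pcmtd1 (0.14), and Rbm41 (0.14). These distances carry no test. The 8 libraries differed in relative depth, and the handling described for the sorted cells is not described for whole retina.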

How the data were processed

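RNA sequencing of 8 libraries of ICR mouse retina was analysed, 1 per condition. Per the methods and the submitters' processing notes, reads of single ends were handled with CASAVA 1.8.2 and bcl2fastq 1.8.4, aligned to mm9 with TopHat2 2.0.8b, and quantified with Cufflinks 2.1.1. The authors deposited a table of FPKM with lower and upper bounds per library (23021 rows). The bounds are FPKM too, and no source used here states that strand was kept. Of these rows, 787 of small RNAs were left out, 4 to 10 failed estimates per library were treated as missing, and rows of a symbol were summed. Ratios were taken on FPKM + 1 (pseudocount 1), for genes with FPKM of at least 1 in either library, past 1.5-fold, with Python 3.11.15, pandas 2.3.3, and numpy 2.4.6. A fit across the 6 sorted libraries with stage as a block, added after seeing the data, used limma 3.58.1 in R 4.3.3 with a mean-variance trend, on genes with FPKM of at least 1 in any of them, with Benjamini-Hochberg adjustment over all genes. Depth was read from steps of low FPKM values relative to E18. The calls were run on simulated data with planted changes of 2-fold or more, and the limma fit with planted log2 changes of 2 or more. Most of the members' ratios were smaller, so these runs do not cover them. Sequences came from RefSeq (GRCm38.p6).

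The members and lists were chosen with earlier results of these data known. All 10 members were named. Of each list, genes past 1.5-fold in one direction at all 3 stages were named, at most 6 per direction by mean ratio, with the 2 of highest mean FPKM. The relatives of Egr1, Spry4, Cabp1's values, and Hspa1a were named after their values were seen. The 8 genes most like Fos and most like the members' mean were named. Alternatives were pseudocounts of 0.1 and 0, no filter, small RNAs kept, upper-quartile scaling, quantile normalization, 2-fold, bounds that did not overlap, and each stage left out. Proteins were not compared here, and some values of list genes are not reported here.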

Additional observations from a re-analysis of the deposited data

Results flagged for a closer look

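The ratio of Cd73PC over Cd73NC had opposite signs at different stages for Fos and Egr1. For Fos, the log2 ratio at P2 exceeded that at P5 by 2.14 and that at P8 by 3.22. For Egr1, the ratio at P2 exceeded that at P5 by 1.74 and that at P8 by 1.93. With 1 library per fraction and stage, these differences between stages were not tested. Both genes kept their direction at each stage with a smaller or no pseudocount, upper-quartile scaling, and quantile normalization, which recompute the ratio. The remaining alternatives leave the ratio of a stage unchanged or drop the stage, so they cannot test its sign. With the 2-fold threshold neither gene was called at P2, Fos was lower at P5 and P8, and Egr1 was lower at P8 only. Astrocyte markers changed direction in the same libraries, with summed FPKM of 3.1 and 26.0 in Cd73NC and Cd73PC at P2 and of 27.1 and 8.8 at P8, and their part was not tested.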

How the results depend on the processing

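With 1 library per condition, the spread between animals is unknown, and depth could be given only relative to E18. The 86 values under alternatives were the counts of members in each comparison and the median over members of their mean log2 ratio. Of these, 69 stayed near the main value, counts within 1.5 times and the median within a shift of 1.5-fold. That median was -0.09, and it was -0.20 with a pseudocount of 0.1 and 0.001 with quantile normalization. In the calls, 0 members were called in the opposite direction between 2 libraries. A 2-fold threshold left 1 member at P2, 2 at P5, and 3 at P8 between the fractions, 2 from E18 to P2 Cd73NC, 1 from P2 to P5 in either fraction, 1 from P5 to P8 in Cd73NC, and 0 in Cd73PC. Between the fractions, 7.81% of all genes were higher and 12.6% lower at P2 by this threshold. The shares were 5.61% and 14.4% at P5, and 7.17% and 19.1% at P8. From E18 to P2 Cd73NC they were 1.12% and 4.95%. From P2 to P5 they were 5.68% and 6.66% in Cd73NC, and 1.86% and 4.61% in Cd73PC. From P5 to P8 they were 7.40% and 4.93% in Cd73NC, and 2.13% and 2.42% in Cd73PC. Taking Cufflinks bounds that did not overlap as the call gave 6 members between the fractions at P2, 2 from E15 to E18, 5 from P2 to P5 in Cd73NC, and 4 from P5 to P8 in Cd73PC. By this rule 24.9% of all genes were higher and 41.7% lower at P2, and 17.5% and 14.0% from E15 to E18. The shares were 26.6% and 32.4% from P2 to P5 in Cd73NC, and 17.6% and 22.8% from P5 to P8 in Cd73PC. From E15 to E18, a pseudocount of 0.1, no pseudocount, or no filter each gave 1 higher, against 10.2%, 10.5%, and 4.61% of all genes higher. Upper-quartile scaling and quantile normalization each gave 2 lower from P2 to P5 in Cd73PC, against 12.4% and 9.16% of all genes lower. Without P2, the mean ratio over stages was -1.88 for Fos and -0.99 for Egr1, and without P8 it was -0.27 for Fos. The other 57 of 60 such means under alternatives moved by less than 1.5-fold.

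Quantile normalization shifted the median of all genes from -0.14 to -0.03 at P2, from -0.18 to 0.03 at P5, and from -0.23 to 0.05 at P8 between the fractions. The share of higher calls among all calls went from 36.8% to 45.9% at P2, from 31.3% to 48.7% at P5, from 29.4% to 49.2% at P8, from 68.7% to 54.3% from E15 to E18, from 29.1% to 44.8% and from 32.8% to 48.7% from E18 to P2 Cd73NC and Cd73PC, and from 28.0% to 48.5% from P2 to P5 in Cd73PC. The limma fit with stage as a block, added after seeing the data, called 1 of 8 members. Its mean ratios (-0.76 for Ier2, 1.06 for Junb, -0.88 for Dusp1) are by construction the means over stages given above. Their agreement is therefore no check on the processing. Absolute depth limits what can be said of Fosb, Fosl2, and Atf3.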
